A study of Caenorhabditis elegans with 4 samples.

Results

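cel-miR-238, cel-miR-239a and cel-miR-239b are a small group of *Caenorhabditis elegans* microRNAs (miRNAs) connected with stress resistance and lifespan. They were taken from a deposited table of small RNA abundance by name, as every entry whose name without the arm suffix (5p or 3p) was one of these 3. This gave 5 mature miRNAs out of 205 listed, from 3 of 132 hairpins. They comprised both arms of cel-miR-238, both arms of cel-miR-239a and the 5p arm of cel-miR-239b.

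Small RNA was sequenced from whole wild-type N2 Bristol animals, the standard laboratory strain of this nematode, grown on OP50 bacteria to the last larval stage (L4). Heat shocked animals (HS, 2 libraries) were shifted to 35°C, and control animals (CTRL, 2 libraries) stayed at 20°C. One label gives a heat shock of 4 h and another of 6 h, and the longer time is the one that the study's methods state for these libraries. The 4 libraries enter the table as 1 pooled value per miRNA, the mean over HS and CTRL libraries of counts divided by each library's size factor, termed the mean normalized count below. Every level given here is therefore the authors' mean over heated and unheated animals together. A miRNA that differs between HS and CTRL is represented by a value that belongs to neither group. The study reports that miR-239a and miR-239b rose in HS, so this limit applies to their levels below. The difference between HS and CTRL was not analysed here. No spread between replicates and no depth of any library could be derived from this mean, so no value below carries an error, and the gaps between miRNAs were not tested.

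A miRNA gene is transcribed as a longer RNA that folds into a hairpin. After the hairpin is cut, its 5′ side (5p) and its 3′ side (3p) form a short duplex, from which an Argonaute protein usually keeps one strand, the guide, while the other strand, the passenger, is mostly degraded. The guide directs Argonaute to mRNAs through its seed, a short stretch near its 5′ end. The guide strands of miR-238, miR-239a and miR-239b are known to carry the same seed, which places them in one family, and this seed lies on the 3p arm in miR-238 but on the 5p arm in both miR-239 hairpins. In earlier genetic work, animals that lack miR-238 were short-lived, whereas animals that lack both miR-239 genes were long-lived and survived heat better. Members of one seed family are thus known for opposite effects on lifespan.

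The family was unequally abundant. miR-238-3p had a mean normalized count of 132007, which made it the 18th most abundant of the 205 miRNAs. miR-239b-5p followed at 9423 (rank 55) and miR-239a-5p at 3223 (rank 78). These 3 were the arms known as guides, and they were the 3 family members above the median of all listed miRNAs, 1512 mean normalized counts. The other members lay below that median. miR-239a-3p was at 1022 (rank 115) and miR-238-5p at 827 (rank 124). The pooled level of miR-238-3p was 14.0 times that of miR-239b-5p and 41.0 times that of miR-239a-5p, and miR-239b-5p was 2.92 times as abundant as miR-239a-5p. These ratios are between different sequences, which are ligated and amplified with different efficiency, so they are ratios of reads and not of molecules.

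**Figure D1:**
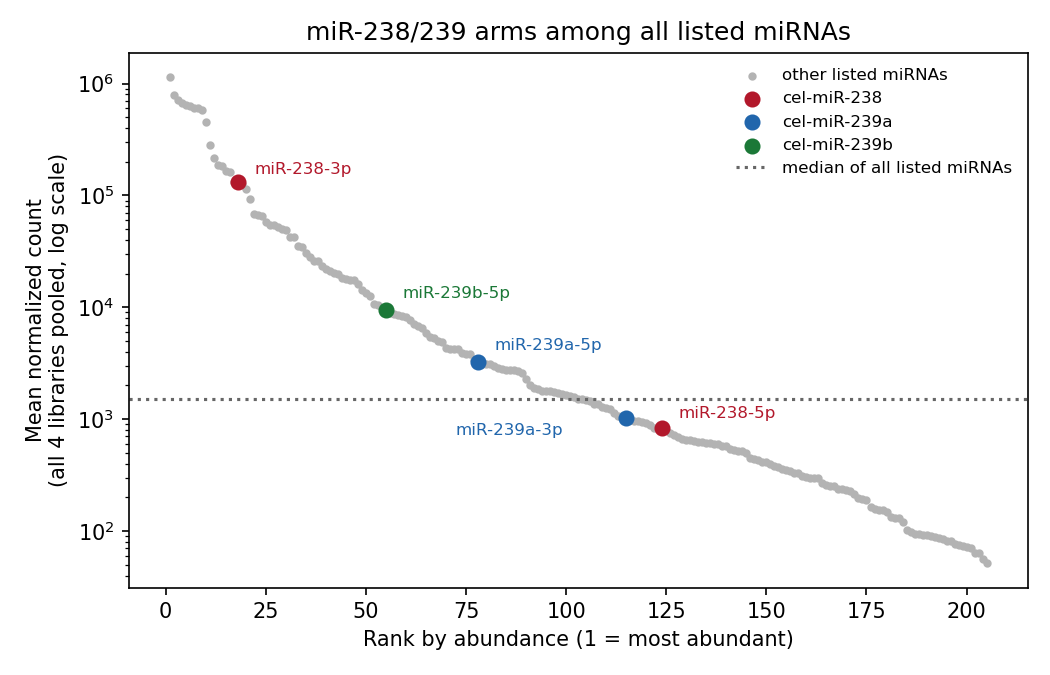
Mean normalized count (log scale, all 4 libraries pooled) of each of the 205 listed miRNAs against its rank, with the family in colour and the other miRNAs in grey; the dotted line is the median of all, 1512. miR-238-3p stands at rank 18, miR-239b-5p at rank 55 and miR-239a-5p at rank 78, whereas miR-239a-3p and miR-238-5p lie below the median.

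miR-238-3p alone carried 90.1% of the summed counts of the family. All 5 members together held 1.48% of the summed mean normalized counts of the table and made up 2.44% of its entries. For scale, the most abundant miRNA of the table, miR-82-3p, held 11.5% with 1136489 mean normalized counts. Taken by hairpin, with the listed arms summed, miR-238 was the 18th of 132 hairpins at 132834 mean normalized counts. miR-239b, for which only the 5p arm was listed, was the 54th at 9423 and miR-239a the 66th at 4245. The order of the 3 hairpins was the same as that of their guide arms. This had to be so, because a weaker arm adds less than its guide and the guides were further apart than that. The share of the sum was 1.34% for miR-238, 0.0953% for miR-239b and 0.0429% for miR-239a.

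Neighbours in the order of abundance were close to each family member. miR-238-3p lay between miR-229-5p at 132073 and miR-61-3p at 126108 mean normalized counts. miR-239b-5p lay between miR-79-3p at 9895 and miR-793 at 8972, and miR-239a-5p between miR-243-3p at 3396 and miR-77-5p at 3102. The widest of these gaps was 1.05-fold, and without a spread over libraries the single ranks cannot be told apart from those next to them. The same held for the passenger arms. miR-239a-3p lay between miR-247-3p at 1068 and miR-67-3p at 981, and miR-238-5p between miR-787-3p at 834 and miR-786-3p at 792.

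The hairpins of the family differed in how unequal their arms were. In miR-238 the 3p arm was the more abundant one, at 132007 mean normalized counts against 827 for the 5p arm, a ratio of 160. The 5p arm thus made up 0.622% of the summed counts of both arms. In miR-239a the 5p arm was the more abundant one, at 3223 against 1022 for the 3p arm, a ratio of 3.15, and the 3p arm made up 24.1% of both. The more abundant arm was in both cases the one that carries the family seed, so the side of the hairpin that prevailed was opposite in miR-238 and miR-239a.

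These ratios were set beside those of all 73 hairpins listed with both arms. The 59 hairpins with 1 listed entry have no arm ratio, so hairpins with a very weak second arm may be missing from the ranks below. The more abundant arm exceeded the other by a median of 20.8-fold over these hairpins, and the ratios ran from 1.01 to 4263. miR-238 ranked 17th, with a larger ratio than 77.8% of the other hairpins. miR-239a ranked 58th, with a larger ratio than 20.8% of them. In 44 of the 73 hairpins, miR-238 included, the 3p arm prevailed, and in the other 29, miR-239a included, the 5p arm. The median ratio was 24.0 where the 3p arm was the more abundant and 7.64 where the 5p arm was, so that miR-238 lay above and miR-239a below the median of its own kind. The study reports that miR-239a-3p rose in HS and that most of the miRNAs that fell were passenger strands. For that reason these pooled ratios and their ranks need not hold in either group.

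**Figure D2:**
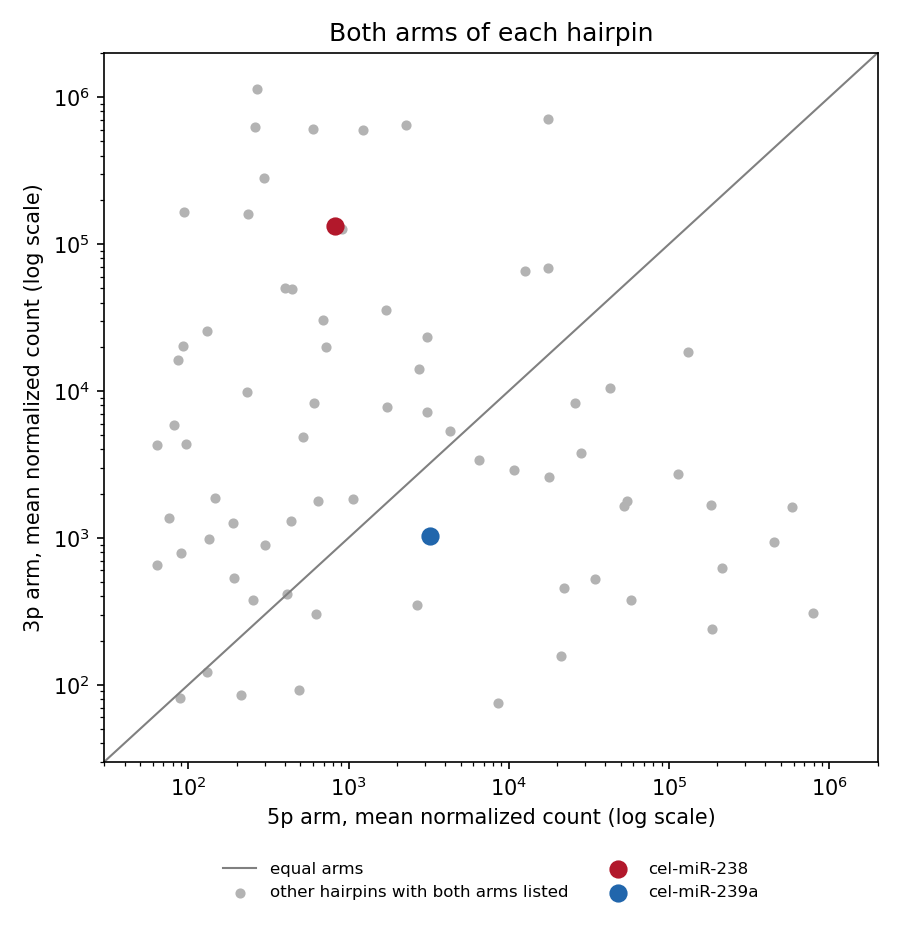
Mean normalized counts of the 3p arm against the 5p arm (both log scales, all 4 libraries pooled) for the 73 hairpins listed with both arms, with the diagonal marking equal arms. miR-238 lies far above the diagonal (132007 for 3p, 827 for 5p) and miR-239a closer to it and below (1022 for 3p, 3223 for 5p).

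The listed passenger arms of the family were nearly equal in the pooled mean in spite of this. miR-239a-3p exceeded miR-238-5p only 1.24-fold, whereas the guide of miR-238 exceeded that of miR-239a 41.0-fold. Among the 73 passenger arms miR-239a-3p ranked 25th and miR-238-5p 28th, and both were above the passenger median of 453 mean normalized counts. Among the 132 guide and unpartnered miRNAs, miR-238-3p ranked 18th, miR-239b-5p 50th and miR-239a-5p 69th. The guide of miR-238 was above the median of all 73 guides, 20314, and the guide of miR-239a below it. The study reports a rise of miR-239a-3p in HS, so the near equality of the listed passenger arms need not hold in either group. Whether these relations were the same in HS and CTRL animals was not tested.

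miR-239b was listed with its 5p arm only. Its 3p arm is annotated, but no value of it was analysed here. A single entry was common in the table, since 59 of 132 hairpins had one, 39 of them with an arm suffix as in miR-239b-5p. The lowest value in the table was 51.5 mean normalized counts, and whether weaker miRNAs had been removed is not stated, so no upper limit can be given for miR-239b-3p and no arm ratio for this hairpin. miR-239b-5p was well above the median of the 59 unpartnered miRNAs, 972, but below the median of the 73 guide arms, 20314.

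On the WBcel235 assembly, miR-239b and miR-239a lie side by side on chromosome X in opposite orientation. The hairpin of miR-239b spans 11791302 to 11791399 on the minus strand (WBGene00003333), and that of miR-239a spans 11792445 to 11792542 on the plus strand (WBGene00003332). They are 98 bp each, are separated by 1045 bp and point away from each other, with the 5′ ends of both hairpins facing the gap. For each of them the other was the nearest annotated miRNA hairpin. Such closeness was not particular to this pair. Of the 127 listed hairpins that could be placed by name, 32 had a listed neighbour within 1045 bp. Neither lies in a protein-coding gene. The nearest are Y102F5A.1, 6971 bp from miR-239b on the minus strand, and rsd-3, which functions in the spread of RNA interference, 5962 bp from miR-239a on the plus strand. In the mean over HS and CTRL libraries, the hairpins differed 2.22-fold in their summed listed arms. The values were 9423 mean normalized counts for the single listed arm of miR-239b and 4245 for both arms of miR-239a. Because the study reports a rise of both miRNAs in HS, this gap need not hold in either group. Its cause was not tested.

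**Figure D3:**
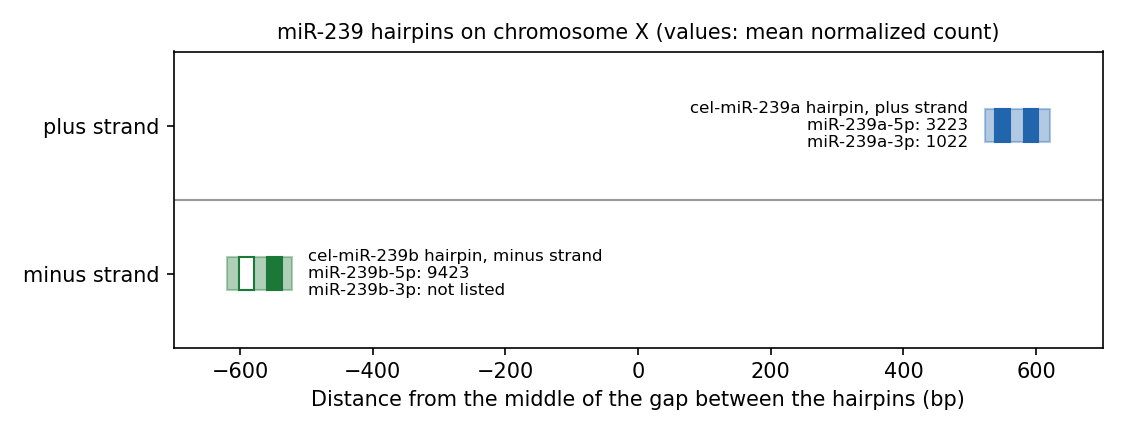
The miR-239 hairpins drawn to scale by strand, against the distance in bp from the middle of the gap between them; dark boxes are mature arms listed in the table with their mean normalized counts (all 4 libraries pooled), and the white box is the unlisted 3p arm of miR-239b. The hairpins are 1045 bp apart on opposite strands, and the 5p arms, which face the gap, had 9423 mean normalized counts in miR-239b and 3223 in miR-239a.

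The mature arms of the miR-239 hairpins are annotated as follows. miR-239b-5p covers 11791363 to 11791384 (22 nt) and miR-239b-3p 11791321 to 11791342 (22 nt). miR-239a-5p covers 11792460 to 11792482 (23 nt) and miR-239a-3p 11792503 to 11792524 (22 nt). In both hairpins 20 nt lie between the arms. The miR-239 guides are related in sequence. How reads that match both were assigned is not stated, so the split between miR-239a-5p and miR-239b-5p is less certain than their sum, and the 2.92-fold gap between them should be read with that limit.

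miR-238 lies on chromosome III at 8867328 to 8867425 on the minus strand (WBGene00003331), also 98 bp long and outside protein-coding genes. Its 5p arm covers 8867387 to 8867410 (24 nt) and its 3p arm 8867343 to 8867365 (23 nt), with 21 nt between them. The nearest protein-coding genes are K01F9.2 at 2673 bp and plg-1, which is needed for the mating plug of males, at 14321 bp. The nearest miRNA hairpin is that of miR-80, a member of the bantam-like family, 1960 bp away on the same strand. miR-80-3p was the third most abundant miRNA of the table at 705995 mean normalized counts, above miR-238-3p. Positions outside protein-coding genes were shared by 81 of the 127 listed hairpins that could be placed by name (63.8%), and 45 of the 127 (35.4%) lay on chromosome X.

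miRNAs known for a stage or tissue were present in the table. let-7-5p, a marker of late larval stages, had 54562 mean normalized counts (rank 26), and lin-4-5p, which appears earlier in larval life, had 34550 (rank 34). The muscle miRNA miR-1-3p had 8318, the sensory neuron miRNA miR-124-3p 617 and miR-35-3p, a miRNA of the germline and embryo, 13420. miR-238-3p was above all 5 of these and miR-239b-5p was close to miR-1-3p. In whole animals, a low level in every cell and a high level in few cells cannot be told apart, and the cells that held the family members were not resolved.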

How the data were processed

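The authors prepared TruSeq small RNA libraries from Trizol-extracted total RNA of HS and CTRL animals (2 libraries each, grouped here by title), mapped the reads to miRNAs and ran DESeq2 on HS against CTRL. The aligner, the miRNA reference, the version of the authors' DESeq2 and the rule for reads with more than 1 match are not given in the sources used here. Of the deposited table, only the signal of each miRNA was used, the mean of size-factor-normalized counts that the authors pooled over all 4 libraries. Its other columns hold the authors' own fold changes and adjusted significance values, which were not used. The table gives no per-library values, so depth is unknown. The pooled mean by itself allows no test, error or interval, and none is given here.

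Ranks, shares of the sum and arm ratios were computed in Python 3.11.15 (pandas 2.3.3) and checked on a simulated table. The more abundant listed arm of a hairpin was taken as the guide, and a miRNA without a listed partner was called unpartnered. No filter on low values was applied. Hairpins were placed by name on WBcel235 with the Ensembl release 115 annotation, counted from 1, which matched 127 of 132. The study aligned its longer RNA reads to WS235, the same assembly. The miRNAs named were the family arms, those ranked next to each, the most abundant miRNA and 5 markers, and miR-80, the hairpin nearest to miR-238, was added after its position was seen. The members and lists were chosen with earlier results of these data known. Seeds, sequence identity and the first bases of the arms had been planned but were not analysed here, since the sources used held no sequences.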

Additional observations from a re-analysis of the deposited data

How the results depend on the processing

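No paired analysis was possible because HS and CTRL libraries enter each value as one mean, and for the same reason no replicate was left out. A shorter seed and a shorter 5′ end, which need the mature sequences, were not run. The place of a miRNA is given here as the percentage of the other miRNAs with a lower mean. Over all 205 miRNAs it was 91.7% for miR-238-3p, 73.5% for miR-239b-5p, 62.3% for miR-239a-5p, 44.1% for miR-239a-3p and 39.7% for miR-238-5p. Among guide and unpartnered miRNAs it was 87.0% for miR-238-3p, 62.6% for miR-239b-5p and 48.1% for miR-239a-5p, which thus fell below the midpoint. With at least 100 mean normalized counts (185 miRNAs) these 3 were at 90.8%, 70.7% and 58.2%, miR-239a-3p at 38.0% and miR-238-5p at 33.2%. With at least 1000 (115 miRNAs) the guides were at 85.1%, 52.6% and 32.5%, miR-239a-3p was the lowest at 0%, and miR-238-5p dropped out. Each setting changes only which miRNAs are counted, not the means: the first removes passenger arms and the other settings remove miRNAs under the minimum.

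The share of the sum held by the family, 1.48%, became 1.67% without the most abundant miRNA and 4.74% without the 10 most abundant. With both arms at 100 or more (60 hairpins), the arm ratio of miR-238 exceeded that of 78.0% and that of miR-239a 22.0% of the other hairpins. With both arms at 1000 or more (25 hairpins), miR-239a was at 20.8%, and miR-238 dropped out. The depth of the libraries is unknown, and its effect on these values was not examined.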
